A study of Mus musculus with 238 samples.

Results

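The gene described here is Kl, which encodes klotho, 1 of the 21076 genes in a count table of mouse brain regions and liver. Its row was taken by its symbol, and its level is given in all 15 brain regions and in liver, by treatment, beside the RNA of choroid plexus epithelium that each library carried. The study sequenced bulk RNA from tissue of C57BL/6JN mice, all 19 months old, to ask where in the central nervous system a dietary and a plasma intervention act. The diet experiment held 9 females, 5 of them dietary restricted (aDR, with the label DR on their liver libraries) and 4 fed ad libitum (AL). The plasma experiment held 7 males injected retro-orbitally, 3 with young mouse plasma (YMP) and 4 with phosphate-buffered saline (PBS). No transgene, deletion or other allele is named in the labels. Sex and experiment coincided, so the experiments cannot be compared apart from sex. The mouse was the replicate in the comparisons of treatments within a tissue and of mouse values over regions, whose p-values measure the spread between mice. Fits that take several regions of a mouse as separate libraries are named as such.

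Klotho is a membrane protein that serves as the co-receptor for the hormone FGF23, a fibroblast growth factor that acts on the kidney to lower phosphate reabsorption and vitamin D activation. Proteases of the ADAM family and BACE1 can shed its extracellular part, which then circulates as soluble klotho. In the brain the best known source is the epithelium of the choroid plexus, the tissue in the ventricles that makes cerebrospinal fluid, and hippocampal neurons are another. Mice that lack klotho age early, which made the gene a subject of ageing research. The plexus lies against the subventricular zone, the corpus callosum, the hippocampus and other walls of the ventricles, so a dissected piece of those regions can carry some of it.

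In the GENCODE vM21 annotation of GRCm38, Kl spans chr5:150952607-150993817 on the plus strand. The coding transcript has 5 exons. A retained-intron transcript extends exon 3 to position 150986981, so reads there count for the gene without coming from the coding transcript. The libraries carry no strand, but no annotated gene overlaps Kl, and the nearest, the pseudogene Gm8675, lies 13629 bases away. The RefSeq sequence of the 250 bases before the start is shown for a comparison of motifs with the plexus genes used below. It lies at chr5:150952357-150952606 of GRCm38.p6, plus strand, with GC boxes in capitals.

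Kl: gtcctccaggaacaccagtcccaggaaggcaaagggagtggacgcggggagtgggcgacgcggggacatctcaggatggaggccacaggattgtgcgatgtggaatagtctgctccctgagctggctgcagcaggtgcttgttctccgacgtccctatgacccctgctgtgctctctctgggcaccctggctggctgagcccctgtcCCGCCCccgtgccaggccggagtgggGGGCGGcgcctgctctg

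The GC box was searched as GGGCGG and, on the other strand, CCGCCC. It occurred at 2 places, the first base lying 17 and 43 bases before the start, and 32.7% of 32851 mouse promoters of the same length hold at least 1. Of the 12 choroid plexus genes used below, 8 had a promoter entry, and 4 of these 8 hold a GC box. The window held none of GGATTA (the core bound by OTX factors, in 6.25% of promoters), TATAAA (the TATA box, in 12.4%) or CACGTG (an E-box, in 6.02%), on either strand. TATAAA occurred in 4 of the 8 matched plexus promoters, GGATTA in 1 and CACGTG in 0. Whether Kl and the plexus genes share regulation was not tested.

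The series holds 229 brain and 9 liver libraries with totals of 0.606 to 32.4 M counts (M, mega; median 8.44 M), and 6 were under 2 M. Levels are CPM, a gene's count divided by the plain library total in M. The sum of 12 genes of choroid plexus epithelium other than Kl, among them the thyroid hormone carrier Ttr and the folate receptor Folr1, served as the measure of plexus RNA. All 12 were detected in each of the 16 libraries labelled choroid plexus, where the sum ran from 150 to 15738 CPM. Those libraries also held neuronal RNA, with the synaptic gene Snap25 at 1961 to 3597 CPM, so the label names a dissection with plexus in it rather than pure plexus. In bulk tissue, fewer cells of a type and less RNA per cell cannot be told apart.

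Kl was highest in choroid plexus, with a median of 201 CPM, followed by corpus callosum at 116 CPM and the subventricular zone (SVZ) at 76.8 CPM. These 3 regions supplied 88.5% of all counts of Kl in the brain libraries. Anterior hippocampus had a median of 15.3 CPM and posterior hippocampus 10.4 CPM. The remaining 10 regions had medians from 4.53 CPM in hypothalamus down to 0.542 CPM in cerebellum. Of the 229 brain libraries, 4 had no count of Kl. They came from caudate putamen, pons, thalamus and visual cortex, and a count of 0 allows up to 0.427, 1.64, 0.354 and 1.65 CPM there.

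**Figure D1:**
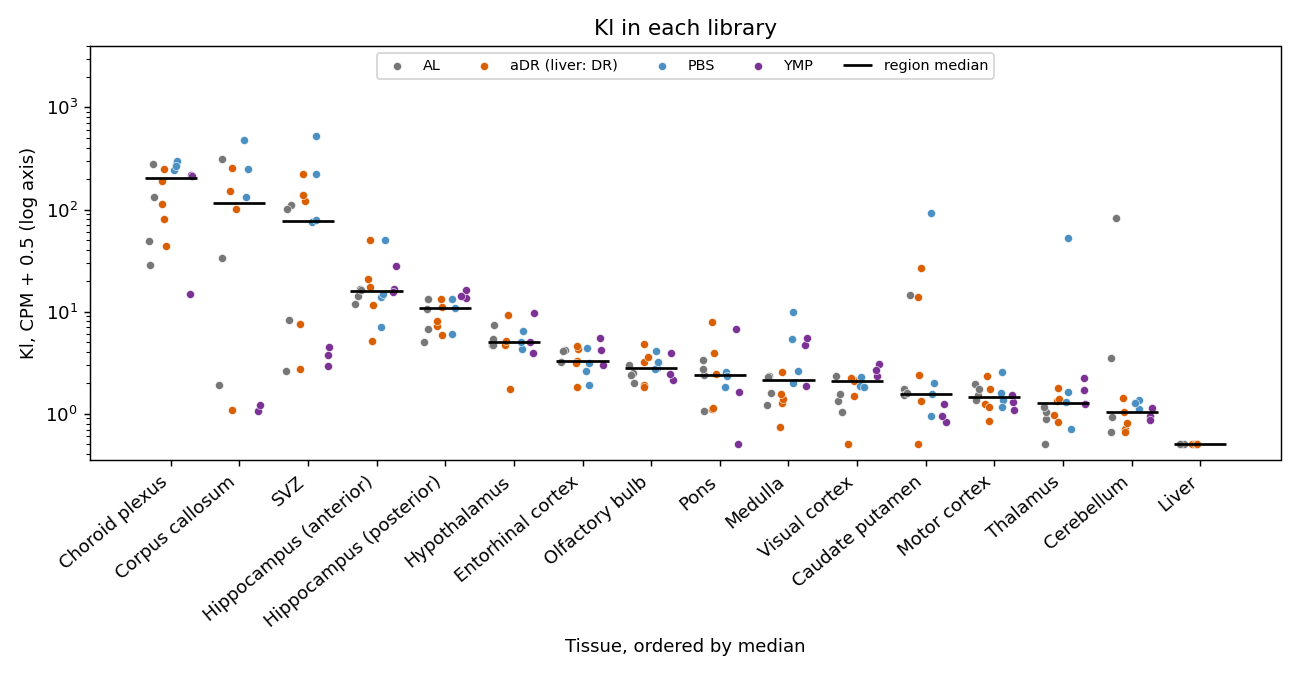
Kl in each library (points, coloured by treatment) by tissue, in CPM plus 0.5 on a log axis, with the tissue median as a bar. Choroid plexus, corpus callosum and SVZ reach 299, 484 and 520 CPM, single libraries of caudate putamen, thalamus and cerebellum stand far above the rest of their region, and all 9 liver libraries have no count.

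In choroid plexus, the AL mice had 28.3, 48.7, 133 and 282 CPM of Kl and the aDR mice 43.5, 80.5, 113, 191 and 250 CPM. The PBS mice had 244, 267, 281 and 299 CPM and the YMP mice 14.3, 211 and 218 CPM. The diet groups overlapped over most of their range, whereas every YMP library was below every PBS library. The lowest library, of YMP mouse 73, was also the one with the lowest plexus sum, 150 CPM. Its Kl per unit of plexus RNA was the highest of the region, 95.4 CPM per 1000 CPM of plexus sum, against a median of 29.6 in the 16 libraries.

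Corpus callosum, a white matter tract under the cortex, split into libraries with much Kl and libraries with almost none. The AL mice had 1.39, 33.1 and 313 CPM, the aDR mice 0.582, 100, 153 and 256 CPM, the PBS mice 132, 251 and 484 CPM, and the 2 YMP mice 0.563 and 0.704 CPM. The SVZ, the neurogenic wall of the lateral ventricle, split in the same manner. There the AL mice had 2.15, 7.71, 100 and 111 CPM and the aDR mice 2.22, 7.05, 121, 138 and 220 CPM. The PBS mice had 74.9, 78.7, 223 and 520 CPM and the YMP mice 2.43, 3.29 and 3.96 CPM. In both regions the low and the high libraries occurred within each diet group, and in the plasma experiment all YMP libraries were low and all PBS libraries high.

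The hippocampus held intermediate levels in every mouse. In its anterior portion the AL mice had 11.3, 13.6, 15.7 and 16.0 CPM, the aDR mice 4.62, 11.2, 16.9, 20.5 and 49.9 CPM, the PBS mice 6.60, 13.3, 14.5 and 49.8 CPM, and the YMP mice 15.0, 16.2 and 27.4 CPM. The libraries at 27.4, 49.8 and 49.9 CPM held 364, 1336 and 922 CPM of Ttr, and the other 13 held under 10 CPM of it. In the posterior portion no library reached 10 CPM of Ttr. There the AL mice had 4.57, 6.18, 10.1 and 12.7 CPM of Kl, the aDR mice 5.42, 6.66, 7.50, 10.7 and 12.8 CPM, the PBS mice 5.54, 10.4 and 12.7 CPM, and the YMP mice 12.9, 13.6 and 15.8 CPM. Only the plasma groups did not overlap.

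Hypothalamus, which controls feeding and hormone release, ranged from 1.25 to 9.30 CPM. Entorhinal cortex, the cortical gate of the hippocampus, ranged from 1.34 to 5.01 CPM around a median of 2.80 CPM, and olfactory bulb from 1.32 to 4.36 CPM around 2.28 CPM. Pons had a median of 1.91 CPM, medulla 1.64 CPM, visual cortex 1.61 CPM and motor cortex 0.941 CPM, and no library of these 4 regions exceeded 9.36 CPM. Caudate putamen (median 1.07 CPM), thalamus (0.770 CPM) and cerebellum each held single high libraries, which reached 92.5, 52.0 and 81.9 CPM. Kl had no count in any of the 9 liver libraries, with 72.0 M counts between them, which allows up to 0.247 to 0.857 CPM in a library and 0.0417 CPM over the group. These limits cover counting error only.

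Neighbours in this order of medians were compared within mice, on log2(CPM + 0.5), by 2-sided permutation of signs, exact over all sign changes, with Benjamini-Hochberg adjustment over the 14 pairs. The pairs were not set beforehand: the order came from the same values, and anew for each set of libraries. Only the step from anterior to posterior hippocampus passed (mean log2 difference 0.83 ± 0.71, SD, n = 15 mice; higher in 14 of 15; exact permutation p = 0.000366, adjusted p = 0.00513). The step from posterior hippocampus to hypothalamus had a similar mean, 0.84 ± 0.88 (SD, n = 13; higher in 10 of 13; exact permutation adjusted p = 0.0598). The order of the 3 highest regions was not resolved. Choroid plexus exceeded corpus callosum in 8 of 12 mice (mean log2 difference 2.01 ± 3.58, SD; exact permutation adjusted p = 0.287), and corpus callosum exceeded SVZ in 6 of 12 (-0.25 ± 1.45, SD; exact permutation adjusted p = 0.702). Without libraries of 10 CPM of Ttr or more, the hippocampal step again passed, with an adjusted p of 0.0381 over 13 pairs (exact permutation). Among the control mice the hippocampal step had a mean of 0.97 ± 0.67 (SD, n = 7; higher in 7 of 7; exact permutation p = 0.0156), the smallest p that 7 mice allow, which alone cannot pass with adjustment over 14 pairs. No other pair of the control mice passed.

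Regions were also compared across all genes with edgeR's quasi-likelihood test and Benjamini-Hochberg adjustment over 16063 genes, and the standard errors (SE) are the log2 difference divided by the root of its F statistic. These comparisons treat libraries of the same mouse as separate, and a fit with the mouse as a block stands beside them where it changes a call. Kl was higher in choroid plexus than in the mean of the other 14 regions by a log2 difference of 4.73 (SE 0.24, edgeR adjusted p = 2.24e-47). Since 31.1% of genes were called higher and 26.9% lower there, a call alone does not set a gene apart. Against libraries with under 10 CPM of Ttr the log2 difference was 6.39.

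Each of the 14 regions outside the plexus was then set against the mean of the other 13. Kl was called higher in 3 of them, against 34.3% of all gene tests, and lower in 5, against 34%. The 3 were corpus callosum (log2 difference 4.67, SE 0.28), SVZ (4.01, SE 0.27) and anterior hippocampus (1.80, SE 0.35, edgeR adjusted p = 3.19e-06). The 5 were motor cortex (-2.78), visual cortex (-2.02), olfactory bulb (-1.66), pons (-1.47) and medulla (-1.47). With the mouse as a block, posterior hippocampus was also called higher (0.96, edgeR adjusted p = 0.0297) and thalamus lower (-1.09, edgeR adjusted p = 0.0412).

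These differences changed when the 34 libraries outside the plexus with 10 CPM of Ttr or more were left out. Kl was then called higher in 4 regions, anterior hippocampus (log2 difference 2.99), posterior hippocampus (2.48), hypothalamus (1.34) and entorhinal cortex (0.72). It was called lower in 5, cerebellum (-2.15), corpus callosum (-1.88), thalamus (-1.69), caudate putamen (-1.12) and motor cortex (-0.90). Corpus callosum thus moved from 4.67 to -1.88, and SVZ from 4.01 to 0.32 (edgeR adjusted p = 0.393). In these fits 6710 to 12646 of 16440 genes were called per region, so the number of calls does not set Kl apart. The libraries of low Ttr numbered 3 in corpus callosum and 5 in SVZ, among them every YMP library of both regions and no PBS library.

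The libraries outside the plexus were divided at 10 CPM of Ttr, with 179 under and 34 above, and no library between 9.98 and 17.5 CPM. This gap is smaller than the 2 log2 units used as a split below, and the division was added after the data had been seen. Among the 179, mean Kl was 13.5 ± 4.27 CPM (SD, n = 13) in anterior hippocampus and 9.84 ± 3.58 CPM (SD, n = 15) in posterior hippocampus. Hypothalamus had 5.05 ± 2.10 CPM (SD, n = 14) and entorhinal cortex 3.07 ± 1.03 CPM (SD, n = 15). SVZ had 2.81 ± 0.788 CPM (SD, n = 5), caudate putamen 0.885 ± 0.533 CPM (SD, n = 12) and corpus callosum 0.616 ± 0.0767 CPM (SD, n = 3). In libraries poor in plexus RNA, Kl was thus highest in the hippocampus, and corpus callosum stood between cerebellum (0.492 CPM) and thalamus (0.675 CPM).

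The amount of Kl that plexus RNA alone would bring was computed per library as its plexus sum times the ratio of mean Kl to mean plexus sum in the choroid plexus libraries of the same experiment, and is called the carry value here. Measured Kl exceeded the carry value in 168 of 213 libraries outside the plexus. It did so in 16 of 16 libraries of anterior and 15 of 15 of posterior hippocampus, in 15 of 15 of entorhinal cortex, 14 of 14 of hypothalamus, 16 of 16 of motor cortex and 16 of 16 of medulla. In corpus callosum Kl exceeded it in 5 of 12 libraries, in SVZ in 11 of 16, in thalamus in 5 of 16 and in cerebellum in 4 of 15. The count rests on the list: it was 195 with Ttr alone and 40 with the 11 other genes. In libraries under 10 CPM of Ttr, the list gene Clic6 averaged 35.6 CPM in hypothalamus and 18.1 CPM in caudate putamen. It averaged 16.2 CPM in cerebellum and 15.4 CPM in thalamus, and Folr1 averaged at most 0.848 CPM in these regions. Clic6 also averaged 30.1 CPM in SVZ and 11.4 CPM in corpus callosum, where Folr1 averaged 3.23 and 1.87 CPM. In all these regions a low plexus sum, and the carry value from it, need not measure plexus RNA. Both hippocampal portions kept 15 libraries above under the 11 genes, of 16 and of 15, while hypothalamus and SVZ kept none.

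In the libraries richest in plexus RNA, measured Kl lay close to the carry value. The 21 libraries outside the plexus and hippocampus with 500 CPM of Ttr or more had 26.0 to 520 CPM of Kl. Their Kl per 1000 CPM of plexus sum was 17.8 to 35.0 with a median of 25.1, inside the range of the choroid plexus libraries, 13.9 to 95.4. Measured Kl was 0.626 to 1.28 times the carry value. Over all 29 libraries outside the plexus with 100 CPM of Ttr or more, hippocampus included, it was 0.626 to 2.69 times that value, and over all 34 with 10 CPM or more 0.626 to 5.36 times, with medians of 1.004 and 0.983. Of these 21 libraries, 17 came from corpus callosum and SVZ.

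**Figure D2:**
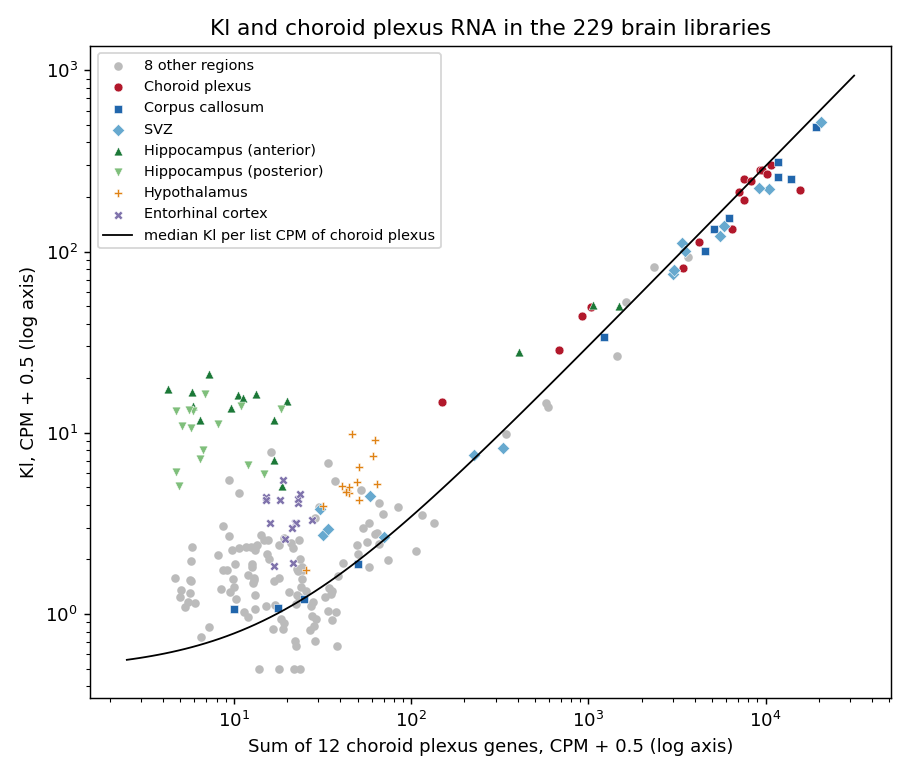
Kl against the summed level of the 12 choroid plexus genes in each brain library, both in CPM plus 0.5 on log axes, with 8 regions in grey and a line at the median Kl per plexus sum of the choroid plexus libraries. Corpus callosum, SVZ and the single high grey libraries (caudate putamen, thalamus, cerebellum) follow the line at high sums, and hippocampal libraries with low sums lie above it.

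The single high libraries of the other regions were rich in plexus RNA as well. Caudate putamen of PBS mouse 76, at 92.5 CPM of Kl, held 3176 CPM of Ttr, and cerebellum of AL mouse 68, at 81.9 CPM of Kl, held 2007 CPM. The other caudate libraries with 10 CPM of Ttr or more, of aDR mouse 62, AL mouse 69 and aDR mouse 61, had 26.0, 14.1 and 13.4 CPM of Kl. Thalamus of PBS mouse 72 had 52.0 CPM and a plexus sum of 1633 CPM. In each of these 3 regions every other library had at most 3.01 CPM of Kl.

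Across mice within a region, log2 Kl was correlated with the log2 plexus sum, with 2-sided permutation tests (exact for up to 8 mice). In 8 of the 15 regions the plexus sums had a gap of more than 2 log2 units, so values over all their mice are not given and enter only the adjustment over 15 regions, and 9 parts on 1 side of the gap with 6 mice or more were used. In the 15 choroid plexus libraries other than that of YMP mouse 73, r was 0.963 and rho 0.889 (permutation p = 2.00e-05 and 3.00e-05, adjusted over 9 parts 1.35e-04 and 2.70e-04). The 8 rich corpus callosum libraries gave r = 0.989 and rho = 0.929 (exact permutation p = 2.23e-04 and 0.00223, adjusted 6.70e-04 and 0.00670), and the 9 rich SVZ libraries r = 0.981 and rho = 0.967 (permutation p = 3.00e-05 and 1.90e-04, adjusted 1.35e-04 and 8.55e-04). Without the 2 libraries farthest from the median sum, r was 0.918, 0.956 and 0.952.

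The 6 parts with low plexus sums varied, and, as with Clic6 above, such sums need not measure plexus RNA. The same limit holds for hypothalamus below. In thalamus 15 libraries gave r = 0.682 and rho = 0.596 (permutation p = 0.00585 and 0.0215, adjusted 0.0132 and 0.0483), with an r of 0.335 without the 2 farthest. In SVZ 7 libraries gave r = 0.876 and rho = 0.536 (exact permutation p = 0.0196 and 0.236, adjusted 0.0354 and 0.303). In cerebellum 14 libraries gave r = 0.670 and rho = 0.0681 (permutation, adjusted p = 0.0611 and 0.821), and in medulla 15 gave r = 0.506 and rho = 0.432 (permutation, adjusted p = 0.0611 and 0.164), with an r of -0.18 and -0.028 without the 2 farthest. The 13 anterior hippocampal libraries gave r = -0.54 and rho = -0.52 (permutation p = 0.0509 and 0.0744, adjusted 0.0611 and 0.134). The 12 caudate putamen libraries gave r = 0.0176 and rho = 0.0979 (permutation p = 0.956 and 0.768, adjusted 0.956 and 0.821). Of the 7 regions without a gap, 2 passed on r with adjustment over 15 regions. Hypothalamus had r = 0.779 and rho = 0.675 (permutation p = 0.00146 and 0.0104, adjusted 0.00365 and 0.0304), which fell to an r of 0.455 without its 2 farthest libraries, and r was 0.922 in its 8 diet mice and 0.466 in its 6 plasma mice. Visual cortex had r = -0.65 and rho = -0.41 (permutation p = 0.0182 and 0.130, adjusted 0.0273 and 0.195), and r without its 2 farthest libraries was -0.19, with -0.62 in 9 diet mice and -0.96 in 6 plasma mice. Both values of r were weaker without their farthest libraries, a step that also narrows the range of sums. In hypothalamus rho passed as well, and in visual cortex it did not.

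For the diet, Kl could be tested in 12 tissues. It was filtered out for low counts in motor cortex, thalamus, cerebellum and liver. Kl was called changed in 0 of the 12, where 0.041% of all gene tests were called, by edgeR's quasi-likelihood test. It had an unadjusted p under 0.05 in 0 of them, and DESeq2 also called 0. In choroid plexus, where 0.00707% of genes were called, the log2 change from AL to aDR was 0.15 (SE 0.65, edgeR adjusted p = 0.9995), and the overlap of the 9 values given above shows the spread behind this error. In SVZ it was 0.91 (SE 1.25), in anterior hippocampus 0.65 (SE 0.50), in posterior hippocampus 0.05 (SE 0.34) and in hypothalamus -0.10 (SE 0.44). The anterior hippocampal value rested on aDR mouse 64, the library with 922 CPM of Ttr, and was -0.01 without it. Over the 12 tissues the log2 changes ran from -0.70 in medulla to 1.0 in caudate putamen. The caudate value was 0.0041 without aDR mouse 62 and 2.95 without AL mouse 69, and the SVZ value 0.31 without aDR mouse 61 and 1.48 without AL mouse 66.

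**Figure D3:**
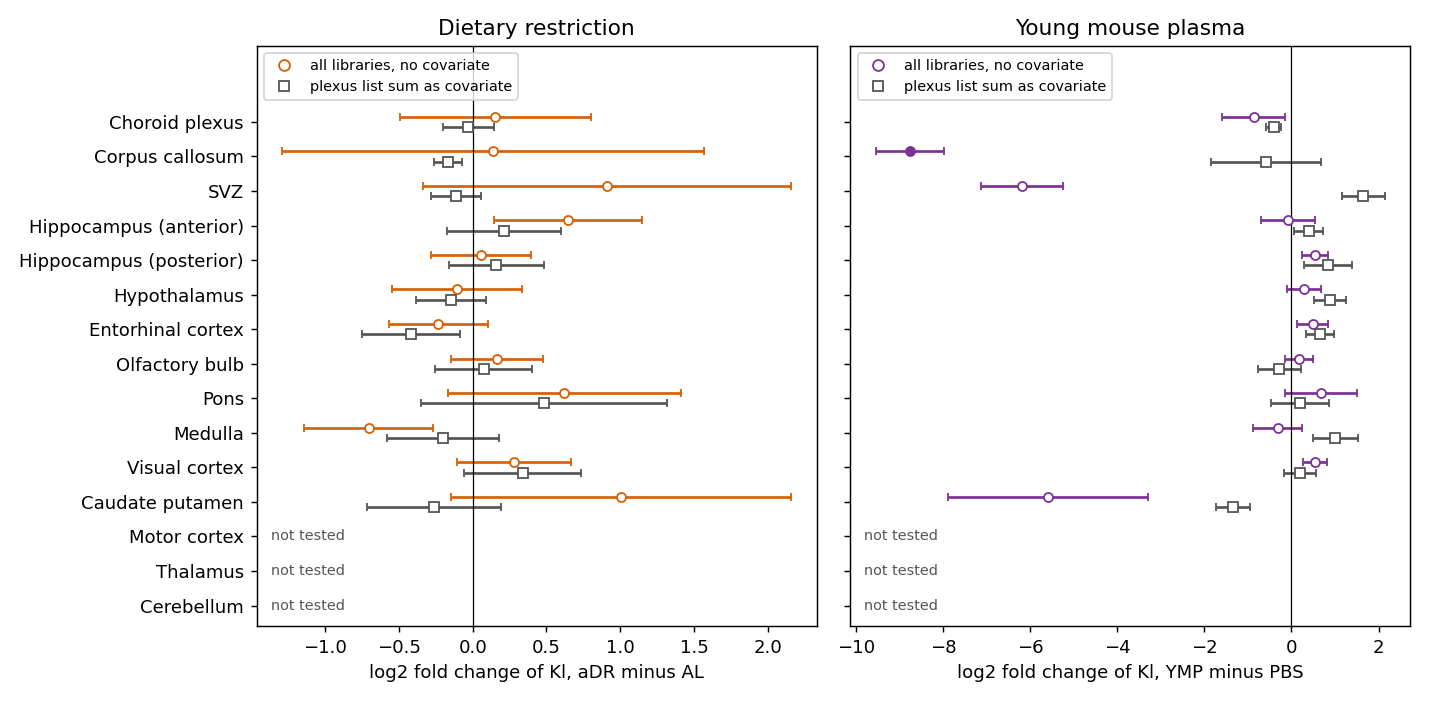
Log2 change of Kl with diet (aDR minus AL) and with plasma (YMP minus PBS) in each brain region, from edgeR, with bars of 1 SE, as fitted without covariates (circles) and with the plexus sum as a covariate (squares). A filled symbol has an adjusted p under 0.05, regions where Kl was filtered out carry no symbol, and the 2 panels have different scales; the filled circle of corpus callosum, at -8.76, is the only one.

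For the plasma experiment, Kl could again be tested in 12 regions and was called changed in 1, corpus callosum, against 0.0152% of gene tests called in those 12 and 0.184% in corpus callosum. The 2 YMP libraries held 0.563 and 0.704 CPM of Kl (3 and 10 counts) and the 3 PBS libraries 132 to 484 CPM, and the log2 change was -8.76 (SE 0.79, edgeR adjusted p = 0.0204). Exact permutation of 2 against 3 mice gives p = 0.2, the smallest possible. Of the 25 genes called, 9 were among the 12 plexus genes, such as Ttr (-12.72) and Kcne2 (-9.32), a potassium channel subunit, and the median over the 12 was -8.42, beside -0.02 over all genes. The insulin-like growth factor gene Igf2, made by the stroma of the plexus and the meninges, was called as well (-4.93).

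The plexus sum of corpus callosum was 9.57 and 24.4 CPM in the YMP and 5136 to 19246 CPM in the PBS libraries. YMP mouse 77 had no count of 7 of the 12 genes, Ttr and Aqp1 among them, YMP mouse 81 none of Aqp1, and the PBS libraries had counts of all 12. The fibroblast genes summed to 15.8 and 18.9 CPM against 51.6 to 162 CPM, and the ependymal genes to 58.0 and 130 CPM against 65.7 to 194 CPM. With the plexus sum as a covariate the log2 change of Kl was -0.59 (SE 1.27, edgeR adjusted p = 0.952), and no PBS library had under 10 CPM of Ttr. The low sums of the YMP libraries need not measure plexus RNA, as with Clic6 above. The call was lost without YMP mouse 77 (log2 change -8.69) or YMP mouse 81 (-8.93). In those fits a lone YMP library is assumed to vary like the PBS ones. The call was also lost without PBS mouse 80 (-8.86, edgeR adjusted p = 0.251), where both YMP libraries remain. The part of plexus RNA in the change of Kl, beyond that covariate, was not tested.

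SVZ showed the same direction without passing the test. The YMP mice had 2.43 to 3.96 CPM and the PBS mice 74.9 to 520 CPM of Kl. The log2 change of -6.19 (SE 0.94) had an edgeR adjusted p of 0.0688, where 0% of genes were called. Exact permutation of 3 against 4 mice gave p = 0.0571, the smallest possible. DESeq2 called it (adjusted p = 1.80e-10), and so did edgeR without the filter on low counts (adjusted p = 0.0392) and edgeR without PBS mouse 72 (adjusted p = 0.0150). The plexus sum was 30.4 to 58.5 CPM in YMP and 2998 to 20456 CPM in PBS libraries, 1 to 3 of the 12 genes had no count in each YMP library and none in the PBS libraries, and the median change of the 12 was -7.62. The fibroblast sum was 22.3 to 29.3 CPM against 62.6 to 170 CPM. With the plexus sum as a covariate the log2 change of Kl turned to 1.65 (SE 0.50, edgeR adjusted p = 0.542). The plexus sums of the groups did not overlap here either, so that fit cannot tell treatment from plexus RNA. As with Clic6 above, the low YMP sums also need not measure plexus RNA.

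In choroid plexus itself the log2 change was -0.87 (SE 0.73, edgeR adjusted p = 0.9996), with 0% of genes called. All 3 YMP libraries were below all 4 PBS libraries (exact permutation p = 0.0571), and the value moved to -0.33 without YMP mouse 73. With the plexus sum as a covariate it was -0.41 (SE 0.17, edgeR unadjusted p = 0.0446, adjusted p = 0.799). Kl per unit of plexus sum differed between YMP and PBS by a mean log2 of 0.27 (exact permutation p = 0.629), which was -0.47 without YMP mouse 73 and 0.92 without YMP mouse 77. By diet the same ratio differed by -0.15 (exact permutation p = 0.667). The groups overlapped in both comparisons of this ratio.

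**Figure D4:**
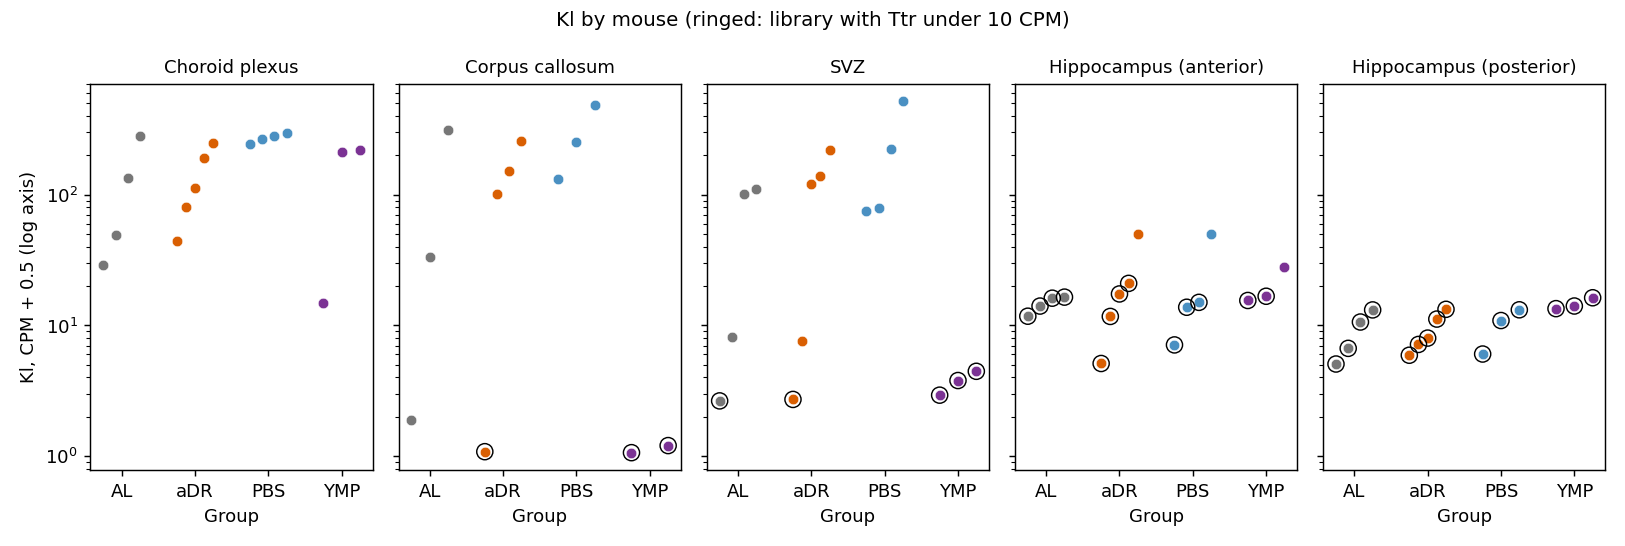
Kl in CPM plus 0.5 (log axis shared by the panels) in each mouse by group, for the 5 regions with the highest medians, with libraries of under 10 CPM of Ttr ringed. In corpus callosum and SVZ the YMP mice are all ringed and low and the PBS mice high, and in posterior hippocampus every library is ringed and the YMP mice, at 12.9 to 15.8 CPM, lie above the PBS mice.

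Outside these regions the plasma values of Kl were small, apart from that of caudate putamen. In caudate putamen the log2 change was -5.60 (SE 2.30, edgeR adjusted p = 0.481). PBS mouse 76 had 92.5 CPM there and the other PBS mice 0.458 to 1.51 CPM. Without mouse 76 Kl was filtered out, so a change without that library was not tested. With the plexus sum as a covariate the value was -1.34 (SE 0.38, edgeR unadjusted p = 0.00627, adjusted p = 0.348). The low sums of this region need not measure plexus RNA, as given above. Kl was higher in every YMP than in every PBS library in posterior hippocampus (log2 change 0.54, SE 0.30, edgeR adjusted p = 0.9996) and in visual cortex (1.83 to 2.56 against 1.33 to 1.80 CPM; 0.54, SE 0.28, edgeR adjusted p = 0.999). No library of those 2 regions reached 10 CPM of Ttr, and exact permutation of 3 against 3 mice gives p = 0.1, the smallest possible. The other 6 regions tested had log2 changes from -0.32 in medulla to 0.68 in pons.

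Over all brain regions, each mouse gave 1 value, its mean deviation of log2 CPM of Kl from the region means, and groups were compared with limma. By diet the log2 change was -0.01 (SE 0.32, limma adjusted p = 0.993), with 0.922% of genes called. By plasma the YMP mice had values of -0.78, -0.72 and -0.48 and the PBS mice 0.04, 0.28, 0.70 and 0.96, which did not overlap. The log2 change was -1.16 (SE 0.22, limma adjusted p = 0.335). No gene was called, 0% of 15768, with 1275 genes at an unadjusted p under 0.05. With libraries rather than mouse values, Kl was called by limma-voom with the mouse as a block (-2.67, adjusted p = 4.17e-04, 468 genes called) and by edgeR without a block (-1.30, adjusted p = 0.0200, 2114 genes called). Without choroid plexus and the libraries of 10 CPM of Ttr or more the limma value was 0.08 (SE 0.09, adjusted p = 0.980), and the plasma groups then overlapped, at -0.05 to 0.15 in YMP and -0.20 to 0.13 in PBS mice.

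Whether the change of Kl differed between regions was tested with the region by treatment terms of an edgeR fit over the 15 regions. By diet it did not pass (edgeR adjusted p = 1), with 0.0128% of genes called. By plasma it passed (edgeR adjusted p = 6.32e-04, with libraries of the same mouse taken as separate), with 0.786% of genes called, 124 of 15768. The call was lost without corpus callosum (adjusted p = 0.0834), without YMP mouse 77 (0.187) or 81 (0.569), and with the plexus sum as a covariate (0.412). In corpus callosum and SVZ the sums of the plasma groups did not overlap, so the covariate cannot tell treatment from plexus RNA there. Over the 12 regions other than choroid plexus, corpus callosum and SVZ, in libraries under 10 CPM of Ttr, the edgeR adjusted p was 1.

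Klotho has 2 relatives, Klb, the co-receptor for FGF21 and FGF15, and Lctl, and levels of the family are given per kilobase of annotated exon so that genes can be compared. The exon length of Kl includes the retained intron, so its level per kilobase is understated for the coding transcript. Kl had a median of 21.6 CPM per kb in choroid plexus and 0 in liver. Klb was the reverse, with a median of 5.27 CPM per kb in liver and at most 0.053 in any brain region, the highest being hypothalamus. Lctl had 0.074 to 0.53 CPM per kb in brain and 0 in liver, in the median.

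Of the hormones, Fgf21 was a liver transcript, with a median of 2.77 CPM per kb there, 0.15 in cerebellum and 0 in the other 14 regions. Fgf23 was nowhere above a median of 0.074 CPM per kb. The receptor Fgfr1, which klotho turns into a receptor for FGF23, had 6.96 CPM per kb in motor cortex to 28.6 in pons and 0.752 in liver, and 15.5 in choroid plexus. Fgfr4 was a liver transcript, with 7.05 CPM per kb.

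**Figure D5:**
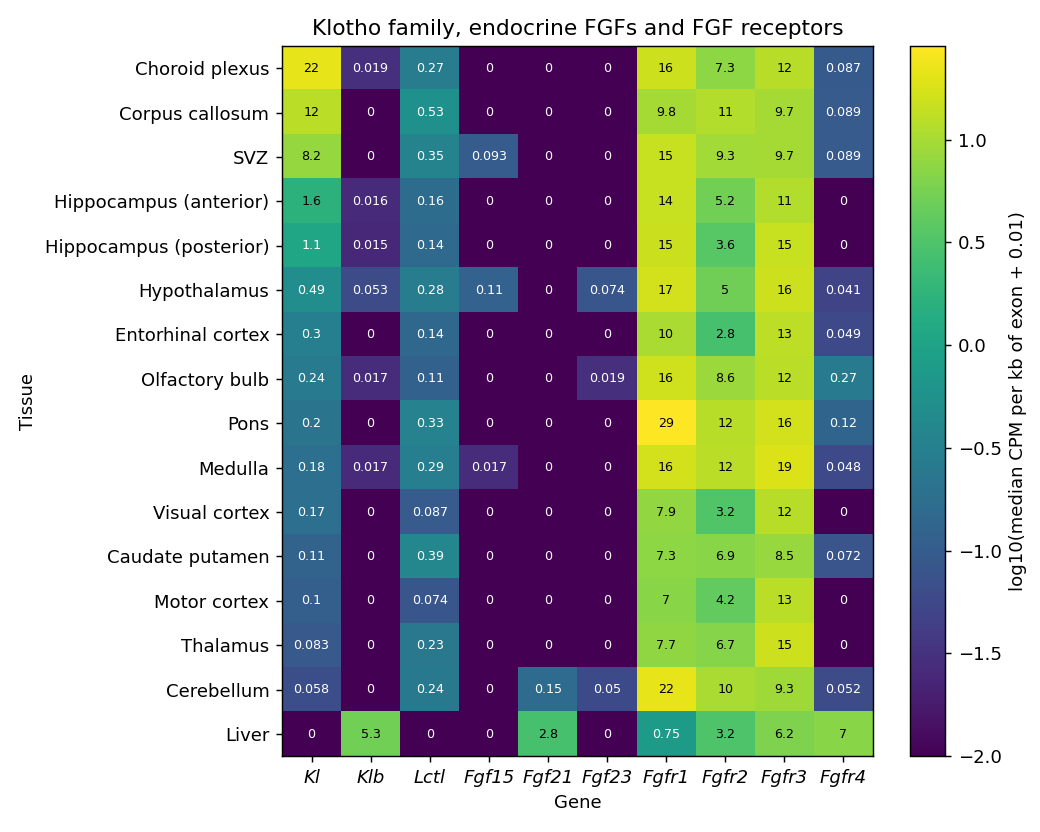
Median level of Kl, its relatives Klb and Lctl, the endocrine FGFs and the FGF receptors in each tissue, in CPM per kb of exon (numbers) and as log10 of that value plus 0.01 (colour). Kl peaks at 22 in choroid plexus and is 0 in liver, where Klb (5.3), Fgf21 (2.8) and Fgfr4 (7) have their highest values.

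Of the 9 listed genes of the family, hormones and receptors other than Kl, 5 could be tested between choroid plexus and the other 14 regions. Called higher were 3 of these, Lctl (log2 difference 0.58, SE 0.19), Fgfr1 (0.32, SE 0.06) and Fgfr2 (0.19, SE 0.08), none was called lower, and the median was 0.32, beside 0.00 over all genes. The shares called were 31.1% higher and 26.9% lower over all genes, and the differences are small beside the 4.73 of Kl. Under the diet, 56 tests of these genes in single tissues gave 2 calls. Fgfr3 rose in olfactory bulb (0.33, SE 0.06, edgeR adjusted p = 0.0455), where 0.22% of genes were called, and Fgfr2 fell in cerebellum (-0.60, SE 0.09, edgeR adjusted p = 0.0300), where 0.0524% were called. The median over the 56 was 0.04, beside 0.00 for all genes. Under plasma edgeR called 0 of 46, with 4 at an unadjusted p under 0.05 and a median of -0.05. In liver, Klb (-0.12, SE 0.28) and Fgf21 (0.28, SE 0.45) did not pass under the diet.

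The genes that shed klotho or work beside it in mineral balance formed a list of 16. The sheddases Adam10 and Adam17 had medians of 12.3 to 23.4 and 1.96 to 4.01 CPM per kb in the brain. Of 11 list members tested between choroid plexus and the other regions, 4 were called higher and 4 lower, with a median of -0.12. With 31.1% of all genes called higher and 26.9% lower, these counts lie near the background. Higher were the calcium-sensing receptor Casr (log2 difference 2.24, SE 0.32), the phosphate transporters Slc34a3 (1.15, SE 0.24) and Slc20a2 (0.12), and the protease Bace1 (0.08). Lower were Adam10 (-0.12), the phosphate transporter Slc20a1 (-0.22), the phosphate exporter Xpr1 (-0.22) and the parathyroid hormone receptor Pth1r (-0.20). In single tissues edgeR called 0 of 128 tests by diet, with 7 at an unadjusted p under 0.05, and 0 of 121 by plasma, with 4. The medians were -0.020 and -0.034, beside 0.00 over all genes in both.

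The genes most like Kl were ranked by Pearson's r of region means of log2 CPM, as a description over points that share libraries and their plexus RNA. Over the 15 brain regions the closest of 14234 genes were Thumpd3 (0.919), Oca2 (0.916), Tc2n (0.914), Sostdc1 (0.912), Tjp3, Il6ra, Msx1, Vcam1, Folr1 and Acot1 (0.852). Sostdc1 and Folr1 belong to the plexus list, whose Ttr stood at rank 25 with 0.825. Over the 14 regions outside the plexus the closest were Dbt (0.890), Mki67, Thumpd3, Sostdc1, Tc2n, Thbs4, Oca2, Il6ra, Atp2c1 and Glis3 (0.846). Among the 16 choroid plexus libraries, after subtraction of the group means, the closest were Drc7 (0.996), Cldn2 (0.994), Clic6 (0.994), Lepr, Otx2, Tmem72, Col9a3, Trpv4, Kcne2 and Lbp (0.989). Cldn2, Clic6, Otx2, Tmem72 and Kcne2 are plexus list genes.

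The genes closest to Kl changed when libraries rich in plexus RNA were left out. Over the 14 regions in libraries under 10 CPM of Ttr they were Nrp1 (0.920), Gpc4, Tnxb, Mycl, Kctd4, Cttn, B4galt4, Zfp607a, Glis3 and Gpr161 (0.836). Nrp1, a receptor for semaphorins and VEGF, had 149 ± 23.6 CPM (SD, n = 13) in anterior hippocampus, 160 ± 42.6 CPM (SD, n = 15) in posterior hippocampus, 13.5 ± 1.48 CPM (SD, n = 13) in cerebellum and 21.3 ± 6.01 CPM (SD, n = 12) in caudate putamen. Gpc4, a cell surface proteoglycan, had 62.4 ± 16.2 CPM (SD, n = 13) in anterior hippocampus and 2.20 ± 0.953 CPM (SD, n = 14) in thalamus. Glis3 was the only gene among the first 10 both here and over all libraries of the 14 regions.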

How the data were processed

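RNA was measured by bulk sequencing in 238 libraries of 16 mice. The authors deposited 1 table of raw counts, whole numbers of reads for each gene and library, and 0 of its sample columns were left unused. Per the labels' protocols, cDNA was made with Smart-Seq2 and libraries by Nextera XT tagmentation, which keeps no strand. The submitters' processing notes name Trim Galore 0.3.7, STAR 2.5.3a, DESeq2 and GRCm38. The counting program and annotation are not given in the sources used here, and gene lengths and positions were taken from GENCODE vM21.

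Kl, the gene lists and the tests were chosen with earlier results of these data known. Each comparison within a tissue was fitted with edgeR 4.0.16 (R 4.3.3, quasi-likelihood test) after a filter on low counts (filterByExpr, minimum count 10, minimum total 15) and TMM scaling, with Benjamini-Hochberg adjustment and a threshold of 0.05. Mouse values over regions used log2 CPM with a prior count of 2 and limma 3.58.1. DESeq2 1.42.0, other scaling and filters, the plexus sum as covariate, exact permutation, a mouse block and leaving out mice were alternatives, and leaving out libraries of 10 CPM of Ttr or more was added after the data had been seen. Region levels, carry values, correlations, neighbouring regions and Kl per unit of plexus sum were computed in Python 3.11.15 with scipy 1.17.1. Correlations beyond 8 mice, and neighbours with no replicate block, used 100000 permutation draws. The other permutations were exact. The edgeR fit within a tissue, the limma fit of mouse values and the region by treatment fit were checked on simulated counts. The other fits were not.

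Named genes were Kl, the fixed examples and called members of the klotho and mineral lists, and the 10 genes most like Kl by each measure, with a mean of at least 1 CPM. Mouse numbers mark the same animal across regions. Deviations from group means had a mean correlation of 0.0452 over pairs of regions from 1 mouse and -0.0056 over pairs from separate mice for diet, and of 0.0960 and -0.016 for plasma. In 357 replicate pairs the chi-square per degree of freedom was at least 1.29 (median 9.31), so no pair was treated as a duplicate.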

Additional observations from a re-analysis of the deposited data

Results flagged for a closer look

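Single libraries stood apart from the others of their group in 4 of the 37 groups of 4 or 5 mice examined for Kl. The rule marks about 1 group in 20 by chance where values are normally distributed, which untransformed CPM need not be, so an excess over chance was not tested. Kl was 14.1 CPM in caudate putamen of AL mouse 69, with 1.24 CPM in the nearest other mouse. It was 92.5 CPM in caudate putamen of PBS mouse 76, with 1.51 CPM in the nearest. In cerebellum of AL mouse 68 it was 81.9 CPM, with 3.01 CPM in the nearest, and in thalamus of PBS mouse 72 it was 52.0 CPM, with 1.12 CPM in the nearest. The 4 libraries had plexus sums of 577, 3645, 2343 and 1633 CPM.

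The plasma effect on Kl differed between regions, with an adjusted p of 0.000632 for the region by treatment terms (edgeR). The plexus sums of corpus callosum and SVZ moved with it, as given above.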

How the results depend on the processing

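Values are log2 changes of Kl unless named otherwise, and each cause was not tested except where the setting itself removes samples or genes. Leaving out a mouse kept direction and side of the threshold for 197 of 236 values, and the other alternatives for 189 of 264. With the plexus sum as covariate, the diet value turned to -0.26 in caudate putamen, -0.028 in choroid plexus, -0.17 in corpus callosum and -0.11 in SVZ. The plasma value became -0.59 in corpus callosum, 1.65 in SVZ, 0.40 in anterior hippocampus, 1.01 in medulla and -0.28 in olfactory bulb. In corpus callosum and SVZ the plexus sums of the plasma groups did not overlap, so treatment and plexus RNA cannot be told apart. Against the other 13 regions that covariate gave -1.23 in caudate putamen, -0.60 in corpus callosum, 0.51 in entorhinal cortex, 0.085 in medulla, 0.096 in motor cortex, -0.68 in SVZ and 0.17 in visual cortex. Without libraries of 10 CPM of Ttr or more, the diet value was -0.27 in caudate putamen and -0.0093 in anterior hippocampus, and the plasma value 0.51 in anterior hippocampus and 0.88 in medulla. Against the other regions it gave -1.12 in caudate putamen, -1.88 in corpus callosum, 0.72 in entorhinal cortex, 1.34 in hypothalamus, 0.19 in olfactory bulb and 0.23 in pons. Cerebellum was 0.96 in control libraries, 0.88 in the diet and -3.68 in the plasma experiment (edgeR adjusted p = 0.00385), and thalamus -3.37 in the diet (edgeR adjusted p = 0.00115) and 0.29 in the plasma experiment. Kl was called in 5 of the 14 regions in the plasma experiment alone, where 5455 to 10906 of 15768 genes were called per region.

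Differences of mean log2(CPM + 0.5), tested by exact permutation, were -7.80 in corpus callosum, 0.23 in anterior hippocampus, -0.21 in olfactory bulb and -0.33 in pons by plasma. SVZ was called with DESeq2 (-6.16) and without the filter (-6.16). Regions called by plasma numbered 2 with DESeq2 and 2 without the filter, and 0 with the covariate. They also numbered 0 without high Ttr libraries, where corpus callosum and SVZ kept no PBS library to test, and by exact permutation, whose smallest p cannot pass. Kl exceeded the carry value in 40 libraries with the list without Ttr. With the mouse as a replicate block, voom gave 0.37 by diet and -2.67 by plasma over all regions, and edgeR with no replicate block 0.039 and -1.30. Without libraries under 2 M counts the diet value was 0.0068, and without the plexus and high Ttr libraries the plasma value was 0.077. The interaction's adjusted p was 0.0834 without corpus callosum, 0.412 with the covariate and 1 in the 12 regions of low Ttr. Neighbouring pairs past the threshold numbered 3 with no replicate block and 0 in control mice, where the hippocampal step reached the smallest p its 7 mice allow.

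Leaving out each mouse in turn moved the diet value between -0.17 and 0.93 in choroid plexus, -0.46 and 2.62 in corpus callosum, -0.0093 and 0.89 in anterior hippocampus, -0.16 and 0.32 in posterior hippocampus, -0.58 and 0.22 in hypothalamus, -0.026 and 0.35 in olfactory bulb, -0.14 and 0.92 in pons, and -0.27 and 0.20 over all regions. The plasma value moved between -9.10 and -8.15 in corpus callosum, -6.48 and -5.30 in SVZ, -0.44 and 0.85 in anterior hippocampus, -0.21 and 0.56 in hypothalamus, -0.67 and 0.29 in medulla, and -0.40 and 0.37 in olfactory bulb. Regions called by plasma numbered 0 to 2, counting corpus callosum as called where the mouse left out had no library there, and the interaction's adjusted p ran from 4.26e-05 to 0.569. Kl per unit of plexus RNA ran from -0.38 to 0.020 by diet and from -0.47 to 0.92 by plasma. At Kl levels near 1 CPM a library of median depth holds few counts, and 4 brain libraries held none.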
